A study of Homo sapiens with 6 samples.

Results

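Autophagy delivers cytoplasmic material to lysosomes, where acid hydrolases break it down. A kinase complex around ULK1 starts the process. A lipid kinase complex with BECN1, the lipid transfer protein ATG2 and the scramblase ATG9 build the membrane. Ubiquitin-like proteins of the ATG8 family are attached to this membrane by the ATG conjugation enzymes. Lysosomes are acidified by the V-ATPase, a proton pump with a cytosolic V1 sector that hydrolyses ATP and a membrane V0 sector that moves protons, and cathepsins are their proteases. Transcription of many of these genes is controlled by TFEB and TFE3, which enter the nucleus when mTORC1 at the lysosome is inactive.

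The genes described here are those of the deposited count table whose symbols begin with ATG, ULK, WIPI, MAP1LC3, GABARAP, ATP6V0 or ATP6V1 or name a cathepsin or a LAMP protein, together with SQSTM1, TFEB, TFE3 and BECN1. The selection rule used symbols and no measured values, but it was chosen with earlier results of these data known. It gave 75 genes of 23368 in the table after 6 pseudogenes were left out. RNA was sequenced from the human lung adenocarcinoma line H2122, collected 48 hours after cells received LYCAT shRNA (3 libraries) or control shRNA (3 libraries) by transfection. LYCAT is an older name of LCLAT1, which encodes an acyltransferase that remodels cardiolipin and phosphatidylinositol. The cell line and the culture conditions were the same in both groups. Whether replicate libraries are separate cultures, and whether more than 1 shRNA sequence was used, is not in the labels. The p-values therefore describe library-to-library spread, which could be purely technical.

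Library totals were 3118946 to 4730453 counts with LYCAT shRNA and 4075367 to 4930079 with control shRNA. By these unscaled totals, 3 counts correspond to 0.609 to 0.962 CPM. Elsewhere CPM is the count relative to the scaled library size, apart from the marker sums below, which use library totals. LCLAT1 stood at 18.9, 22.6 and 23.6 CPM with LYCAT shRNA, against 56.8, 61.2 and 65.3 CPM with control shRNA (log2 fold change -1.499, SE 0.114, edgeR adjusted p = 1.15e-18; exact two-sided permutation p = 0.1, the smallest that 3 against 3 libraries can give). Chi-square over its degrees of freedom was 1.36 to 2.58 for pairs of libraries in the same group, and 5.08 to 7.04 for pairs across groups. The epithelial markers EPCAM, CDH1, KRT7, KRT8, KRT18 and KRT19 summed to 1423 to 1489 CPM of the library total with LYCAT shRNA, against 1601 to 1713 CPM with control shRNA, and 4 of these 6 fell. Of 10 macrophage markers, MRC1, C1QA, C1QB and TYROBP were at 0 in every library, 1 was abundant enough to test and did not pass, and the 10 summed to 5.33 to 7.37 CPM with LYCAT shRNA and 3.89 to 4.67 CPM with control shRNA. Fibroblast markers, collagens in the main, summed to 18.6 to 37.4 CPM with LYCAT shRNA and 30.7 to 129 CPM with control shRNA, where control libraries 1 and 2 held the high values. Of 6 markers of other blood cells PTPRC, CD3E and LYZ were at 0 in every library and of 4 of endothelium PECAM1 and CDH5 were, and none of either list could be tested. What part these markers have in the results below was not tested, and in bulk RNA fewer cells of a type and less RNA per cell cannot be told apart.

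Of the 75 genes, 59 were abundant enough to test, and 16 were not. Most of the 59 did not pass: 4 rose, 5 fell and 50 did not pass (edgeR quasi-likelihood test, Benjamini-Hochberg adjusted p under 0.05 over 11097 genes). Those that rose were WIPI2, CTSL1, ATP6V0B and ATP6V0E1, and those that fell were ULK1, ATG2B, CTSC, CTSD and CTSL2. Across all tested genes 19.1% passed, 9.81% as higher and 9.26% as lower, and of the 59 genes 15.3% passed, 6.78% as higher and 8.47% as lower, so the share was not above that of the transcriptome. The 59 genes had a median log2 fold change of 0.005, against -0.006 for all tested genes, and a median size of change of 0.12, against 0.16. The groups did not overlap for 7 genes that were higher with LYCAT shRNA and 11 that were lower, where 16.6% and 16.2% of all tested genes did not overlap in these directions, and 32.8% in either direction. Of the 9 genes that passed, 7 differed by less than 1.5-fold.

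**Figure D1:**
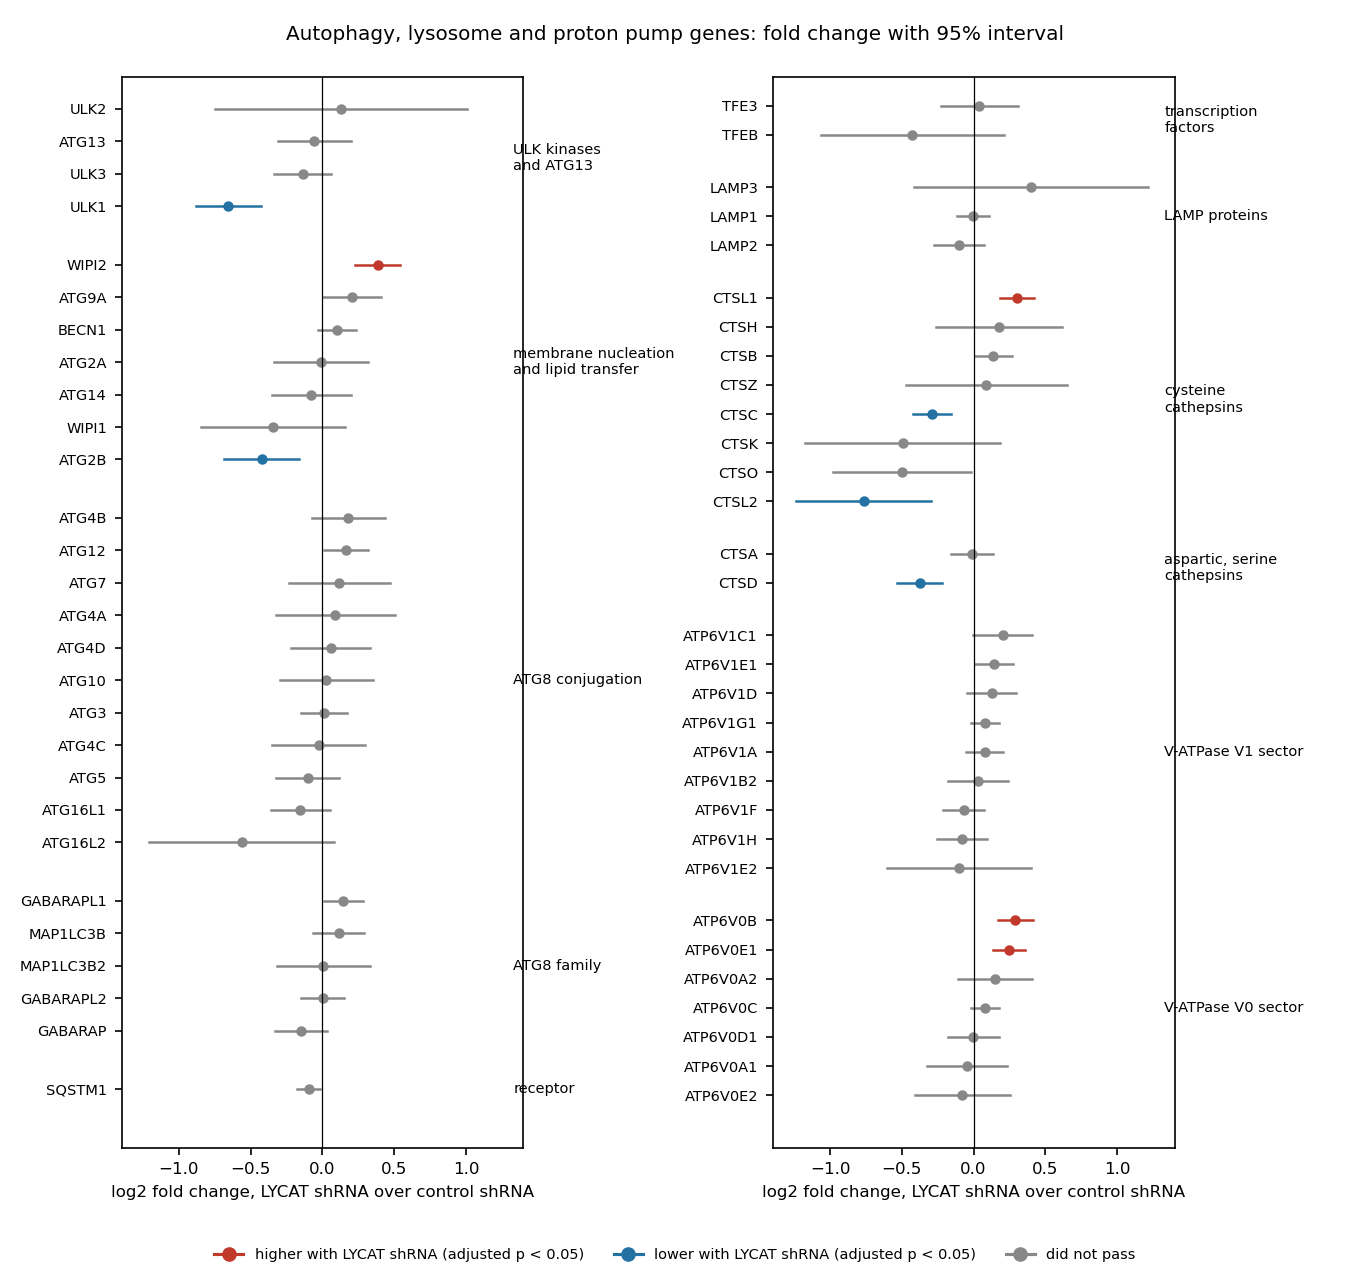
Log2 fold change of LYCAT shRNA over control shRNA for the 59 tested genes, grouped by role, with 95% intervals from the edgeR fit (3 libraries per group); red and blue mark genes that passed as higher and lower, grey those that did not. Most genes lie close to 0, and the intervals are widest for genes of low level such as ULK2 and LAMP3.

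The genes differed widely in level and in precision. The SE of the log2 fold change was 0.041 for SQSTM1 and 0.44 for ULK2, the most and the least precise of the 59. Per kilobase of exon SQSTM1 was the most abundant, at 496 CPM with LYCAT shRNA and 530 CPM with control shRNA. The V-ATPase subunit genes ATP6V1G1 and ATP6V0C followed, at 439 and 341 CPM per kilobase with LYCAT shRNA and at 416 and 322 CPM per kilobase with control shRNA. At the other end ULK2 and LAMP3 had means of 2.21 and 2.67 CPM with LYCAT shRNA and 1.93 and 2.08 CPM with control shRNA, without scaling to length.

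**Figure D2:**
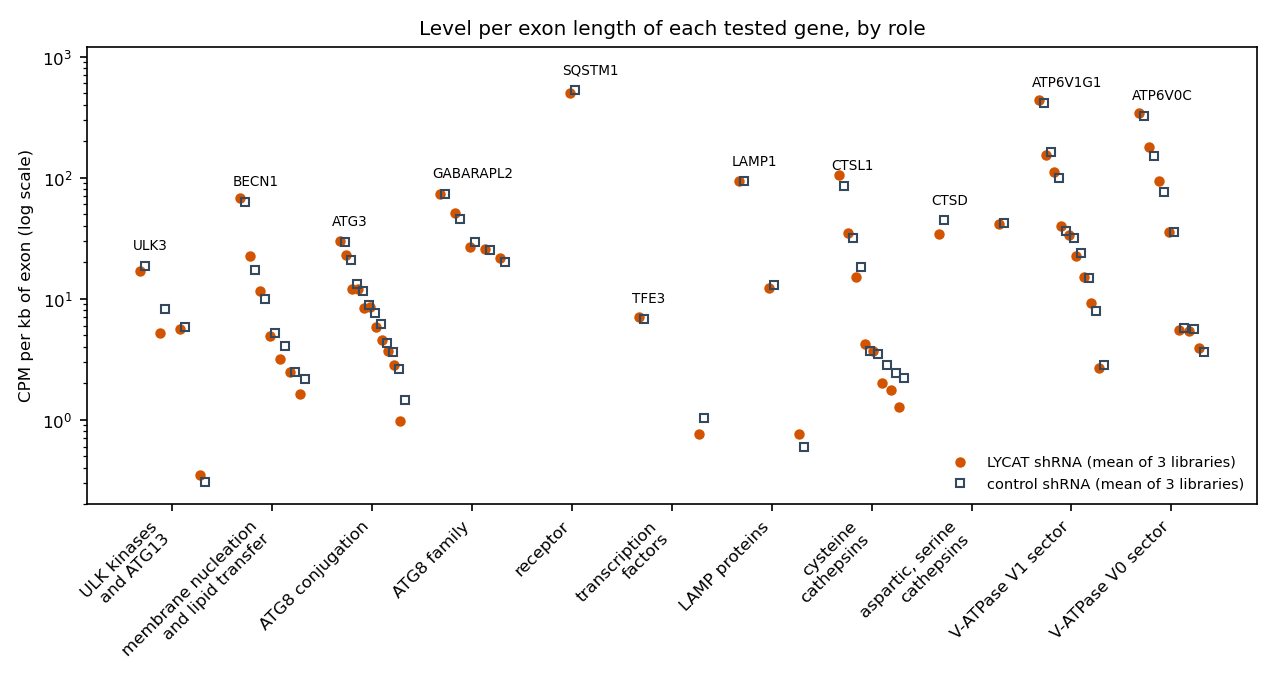
Mean level of each tested gene in CPM per kilobase of exon (log scale), by role, for LYCAT shRNA (filled circles) and control shRNA (open squares), 3 libraries each. SQSTM1, ATP6V1G1 and ATP6V0C are the most abundant per length in both groups, and the levels of the 2 groups lie close together for most genes.

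Among the kinases that start autophagy, ULK1 fell. With ATG13 counted in, 1 of 4 tested genes fell and 0 rose. That is 25% lower, against 9.26% of all tested genes, and 4 genes give only an imprecise share. ULK1, the kinase that mTORC1 and AMPK act on to hold or start autophagy, stood at 27.6, 27.7 and 27.6 CPM with LYCAT shRNA, against 45.2, 42.4 and 43.1 CPM with control shRNA. The groups did not overlap. Counts of 130, 86 and 118 with LYCAT shRNA carry more counting error than the SD of that group shows, so the SE is the better guide to precision. The mean was 27.6 ± 0.0890 CPM with LYCAT shRNA and 43.6 ± 1.49 CPM with control shRNA (SD, n = 3 each), a fall of 1.58-fold (log2 -0.66, SE 0.113, edgeR adjusted p = 4.93e-06). ULK3, a related kinase with a role in autophagy and Hedgehog signalling, had log2 -0.14 (edgeR adjusted p = 0.358), with levels of 45.5 to 48.5 CPM with LYCAT shRNA and 48.8 to 52.7 CPM with control shRNA, which did not overlap. ATG13, the subunit that joins ULK1 to its partners, had log2 -0.06 and a 95% interval of -0.31 to 0.20. ULK2, the close relative of ULK1, was at 1.70 to 2.58 CPM with LYCAT shRNA and 0.985 to 2.79 CPM with control shRNA, too low for its direction to be read. ULK4, a pseudokinase, was not tested, with counts of 2, 0 and 8 with LYCAT shRNA and 12, 3 and 6 with control shRNA.

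Genes of membrane nucleation and lipid transfer moved in both directions, with 1 that rose, 1 that fell and 5 that did not pass. Each direction held 14.3% of the 7 tested, against 9.81% higher and 9.26% lower over all tested genes. WIPI2, which binds phosphatidylinositol 3-phosphate on the forming membrane and recruits ATG16L1, stood at 116, 105 and 97.1 CPM with LYCAT shRNA, against 76.1, 86.3 and 81.0 CPM with control shRNA. Every LYCAT shRNA library was above every control library. The mean was 106 ± 9.31 CPM with LYCAT shRNA and 81.1 ± 5.13 CPM with control shRNA (SD, n = 3 each), a rise of 1.31-fold (log2 0.39, SE 0.0783, edgeR adjusted p = 0.000118). WIPI1, its paralog, was lower in level, at 5.32, 5.48 and 7.24 CPM with LYCAT shRNA and 6.22, 9.32 and 7.39 CPM with control shRNA, and did not pass (log2 -0.34, edgeR adjusted p = 0.373).

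ATG2B, which moves lipids from the endoplasmic reticulum into the growing membrane, fell. It stood at 21.7, 22.3 and 22.4 CPM with LYCAT shRNA, against 29.8, 27.0 and 32.5 CPM with control shRNA, and the groups did not overlap (log2 -0.42, SE 0.131, edgeR adjusted p = 0.0145). The call was lost without LYCAT shRNA replicate 1 (edgeR adjusted p = 0.0672), without control replicate 3 (0.0899) and with DESeq2 (0.0941). ATG2A, the other member of this pair, was at 15.7 ± 1.55 CPM with LYCAT shRNA and 15.9 ± 0.968 CPM with control shRNA (SD, n = 3 each) and had log2 -0.01, with a 95% interval of -0.34 to 0.32. The ratio of ATG2A to ATG2B was 0.638 to 0.771 in the LYCAT shRNA libraries and 0.496 to 0.617 in the control libraries, and the difference between the paralogs was not tested.

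BECN1, the Beclin subunit of the lipid kinase complex, stood at 149, 149 and 137 CPM with LYCAT shRNA, against 133, 131 and 142 CPM with control shRNA. The groups overlapped, and BECN1 did not pass (log2 0.10, edgeR adjusted p = 0.314), with an interval from 2.13% lower to 17.5% higher (95%). ATG9A, a scramblase on vesicles that seed the membrane, had 45.5 to 53.5 CPM with LYCAT shRNA and 40.3 to 43.3 CPM with control shRNA. It did not pass (log2 0.21, edgeR adjusted p = 0.159), though the groups did not overlap. ATG14, which directs the BECN1 complex to autophagy, had log2 -0.08, and ATG9B had 0 counts in every library.

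The genes of ATG8 attachment to lipid, with the ATG4 proteases counted among them, did not pass in either direction. Of 11 genes 0 passed with edgeR, against 19.1% of all tested genes, and 0 with DESeq2 or limma-voom. Of the 11 only ATG12 had an unadjusted edgeR p under 0.05. Their log2 fold changes ran from -0.56 for ATG16L2, which was measured at 2.57 to 3.83 CPM with LYCAT shRNA and 4.26 to 5.66 CPM with control shRNA, to 0.18 for the protease gene ATG4B. ATG12, the ubiquitin-like partner of ATG5, was at 106, 90.3 and 104 CPM with LYCAT shRNA and 94.3, 92.2 and 83.2 CPM with control shRNA (log2 0.16, edgeR adjusted p = 0.129). ATG3, the enzyme that passes ATG8 proteins to lipid, was at 90.9 ± 11.4 CPM with LYCAT shRNA and 90.5 ± 1.17 CPM with control shRNA (SD, n = 3 each), with a 95% interval of -0.15 to 0.17. ATG7, which activates both ubiquitin-like systems, had log2 0.12, ATG5 had -0.10 and ATG16L1, the scaffold that fixes the site of attachment, had -0.16.

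The ATG8 proteins themselves coat the autophagosome and bind its cargo receptors. Of the 5 tested genes 0 passed with edgeR, against 19.1% of all tested genes, and 0 with DESeq2 or limma-voom. So few genes give only an imprecise share, and GABARAPL1 had an unadjusted edgeR p under 0.05. GABARAPL1 was at 154, 168 and 136 CPM with LYCAT shRNA and 129, 148 and 133 CPM with control shRNA, so the groups overlapped (log2 0.15, edgeR adjusted p = 0.131). It passed as higher without LYCAT shRNA replicate 3 (edgeR adjusted p = 0.0355) and without control replicate 2 (0.0226). GABARAPL2 was at 100.1 ± 5.13 CPM with LYCAT shRNA and 100.4 ± 6.29 CPM with control shRNA (SD, n = 3 each), a log2 fold change of 0.001. GABARAP had log2 -0.15 and MAP1LC3B, the gene of the widely used autophagosome marker LC3B, 0.11. MAP1LC3B2 is a near-identical copy of MAP1LC3B whose reads counting can split, so their sum is the safer value: 82.6 ± 4.94 CPM with LYCAT shRNA and 77.4 ± 4.88 CPM with control shRNA (SD, n = 3 each). MAP1LC3A and MAP1LC3C had 0 counts in every library, a limit of 0.609 to 0.962 CPM of the library total for counting error only.

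SQSTM1, which encodes the ubiquitin-binding receptor p62, was the most abundant of the genes and changed little. It stood at 1704, 1705 and 1761 CPM with LYCAT shRNA, against 1767, 1872 and 1886 CPM with control shRNA. Every LYCAT shRNA library was below every control library, by a small amount. The difference of -0.10 on the log2 scale (95% interval -0.18 to -0.01) did not pass (edgeR adjusted p = 0.0921), and SQSTM1 and ATP6V1E1 were the genes nearest to the threshold on the outer side, as ATG2B and CTSL2 were on the inner side. SQSTM1 passed as lower when libraries were scaled by their totals alone (0.0388), without control replicate 1 (0.0393) and without control libraries 1 and 2 (0.0423).

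The transcription factors of the lysosomal programme did not pass. TFEB stood at 3.19, 2.90 and 4.20 CPM with LYCAT shRNA, against 4.50, 5.47 and 3.94 CPM with control shRNA. The groups overlapped, and at this level the 95% interval of its log2 fold change ran from -1.06 to 0.21 (log2 -0.43, edgeR adjusted p = 0.389). TFE3 stood at 24.5, 24.5 and 22.7 CPM with LYCAT shRNA, against 23.4, 21.3 and 25.1 CPM with control shRNA (log2 0.04, edgeR adjusted p = 0.881). Of these 2 genes 0 passed with edgeR, where 19.1% of all tested genes passed, and 0 with DESeq2 or limma-voom. Neither TFEB nor TFE3 had an unadjusted edgeR p under 0.05. Both factors are controlled largely by where in the cell they are, which RNA levels do not show.

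TFEB and TFE3 bind the CLEAR element, a palindrome around the core CACGTG. In the 250 bases before the annotated start, RefSeq promoters (GRCh38.p14) of 58 of the 75 genes were searched. The table used has no window for the other 17, among them ATP6V0E1, CTSB and LAMP2. CACGTG reads the same on both strands and was found in 11 of the 58 genes, or 19%, and in 7.73% of 27305 genes with a promoter. The 27305 were not limited to genes tested here, so the sets are unlike, and the difference was not tested. TCACGTGA, which contains the core, was found in 4 of the 58, or 6.9%, and in 1.04% of the 27305. Of the 8 genes that passed and had a window, ATP6V0B among those that rose and CTSD among those that fell held the core. Among 39 genes that did not pass the core was in 8, including LAMP1 with 5 copies in this stretch. The sequences below, each ending at the base before the start, show a gene that rose, a gene that fell and 3 that did not pass; capitals mark CACGTG, and a match is a run of letters, not a measured binding site.
ATP6V0B, chr1:43974860-43974959, plus strand: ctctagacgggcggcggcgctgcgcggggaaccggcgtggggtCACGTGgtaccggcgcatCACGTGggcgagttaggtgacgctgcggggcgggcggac
CTSD, chr11:1763928-1764027, minus strand: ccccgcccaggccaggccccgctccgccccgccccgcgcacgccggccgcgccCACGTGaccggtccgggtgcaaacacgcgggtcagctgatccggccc
CTSA, chr20:45891235-45891334, plus strand: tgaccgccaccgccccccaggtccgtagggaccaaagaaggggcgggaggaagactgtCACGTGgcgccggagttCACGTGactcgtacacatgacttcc
ATP6V1G1, chr9:114587669-114587768, plus strand: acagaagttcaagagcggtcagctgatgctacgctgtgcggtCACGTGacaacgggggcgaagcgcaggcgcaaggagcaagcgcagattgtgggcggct
LAMP1, chr13:113297039-113297238, plus strand: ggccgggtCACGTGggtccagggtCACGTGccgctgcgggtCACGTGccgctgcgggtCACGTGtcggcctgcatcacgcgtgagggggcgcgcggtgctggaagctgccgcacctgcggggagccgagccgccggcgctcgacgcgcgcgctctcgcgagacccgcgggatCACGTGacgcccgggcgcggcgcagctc
The copies began 57 and 39 bases before the start in ATP6V0B, 47 bases before it in CTSD, 42 and 25 bases before it in CTSA and 58 bases before it in ATP6V1G1. In LAMP1 they began 192, 176, 159, 142 and 28 bases before it.

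The LAMP proteins line the lysosomal membrane and make up much of its protein. LAMP1 stood at 247, 250 and 256 CPM with LYCAT shRNA, against 247, 253 and 255 CPM with control shRNA, and the groups overlapped throughout. Its log2 fold change was -0.003, with an interval from 7.54% lower to 7.65% higher (95%). LAMP2, needed for fusion of autophagosomes and for chaperone-mediated autophagy, was at 67.2 ± 5.18 CPM with LYCAT shRNA and 71.9 ± 6.70 CPM with control shRNA (SD, n = 3 each; log2 -0.10, edgeR adjusted p = 0.463). LAMP3 had counts of 16, 7 and 10 with LYCAT shRNA and 7, 10 and 11 with control shRNA and did not pass. Of the 3 genes 0 passed with edgeR, against 19.1% of all tested genes, and 0 with DESeq2 or limma-voom. So few genes give only an imprecise share, and 0 had an unadjusted edgeR p under 0.05.

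Cathepsins changed in both directions: of 10 tested genes 1 rose, 3 fell and 6 did not pass. That is 10% higher and 30% lower, against 9.81% and 9.26% of all tested genes, and 10 genes give only an imprecise share. CTSL1, the gene of cathepsin L, a cysteine protease of broad action, stood at 243, 257 and 246 CPM with LYCAT shRNA, against 221, 180 and 204 CPM with control shRNA. All LYCAT shRNA libraries were above all control libraries. The mean was 249 ± 7.13 CPM with LYCAT shRNA and 202 ± 20.4 CPM with control shRNA (SD, n = 3 each), a rise of 1.23-fold (log2 0.30, SE 0.0602, edgeR adjusted p = 8.63e-05).

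CTSL2, the gene of cathepsin V, a close relative of cathepsin L known from thymus and cornea, moved the other way. It stood at 7.87, 4.84 and 4.67 CPM with LYCAT shRNA, against 10.9, 10.1 and 9.11 CPM with control shRNA (log2 -0.77, SE 0.237, edgeR adjusted p = 0.0146). The groups did not overlap, but counts of 37, 15 and 20 with LYCAT shRNA and 51, 50 and 37 with control shRNA leave the size imprecise. The call was lost without LYCAT shRNA replicate 2 (edgeR adjusted p = 0.0696), LYCAT shRNA replicate 3 (0.124) or control replicate 1 (0.0637), without control libraries 1 and 2 together (0.284) and with DESeq2 (0.0984). The ratio of CTSL1 to CTSL2 was 31.0 to 53.1 in the LYCAT shRNA libraries and 17.8 to 22.4 in the control libraries, and this difference was not tested.

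CTSD, the gene of the aspartic protease cathepsin D, stood at 72.1, 75.5 and 70.8 CPM with LYCAT shRNA, against 97.1, 92.8 and 92.3 CPM with control shRNA. The groups were well apart. The mean was 72.8 ± 2.43 CPM with LYCAT shRNA and 94.1 ± 2.61 CPM with control shRNA (SD, n = 3 each), and CTSD fell by 22.9% (log2 -0.37, SE 0.0795, edgeR adjusted p = 0.000227). CTSC, the gene of cathepsin C, which activates serine proteases of granules, stood at 113, 115 and 118 CPM with LYCAT shRNA, against 149, 138 and 135 CPM with control shRNA. It fell by 0.29 on the log2 scale (SE 0.0678, edgeR adjusted p = 0.000916), and the call was lost without control libraries 1 and 2 together (edgeR adjusted p = 0.0853).

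Other cathepsin genes did not pass. CTSB, a cysteine protease, was at 146 ± 7.82 CPM with LYCAT shRNA and 133 ± 5.88 CPM with control shRNA (SD, n = 3 each), with overlap between the groups (log2 0.14, edgeR adjusted p = 0.136). CTSA, a carboxypeptidase that also protects other lysosomal enzymes, was at 97.5 ± 3.53 CPM with LYCAT shRNA and 98.0 ± 3.54 CPM with control shRNA (SD, n = 3 each; log2 -0.01, 95% interval -0.16 to 0.14). CTSO was at 5.48 to 6.54 CPM with LYCAT shRNA and 7.29 to 9.11 CPM with control shRNA (log2 -0.50, edgeR adjusted p = 0.145), and CTSK, the bone-resorbing protease of osteoclasts, had log2 -0.49. CTSH and CTSZ had log2 0.18 and 0.09. CTSS, a protease of antigen-presenting cells, had counts of 3, 5 and 11 with LYCAT shRNA and 12, 6 and 5 with control shRNA. CTSG and CTSW, proteases of neutrophils and of cytotoxic lymphocytes, had 0 counts in every library, and CTSE and CTSF had no more than 2 in any.

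**Figure D3:**
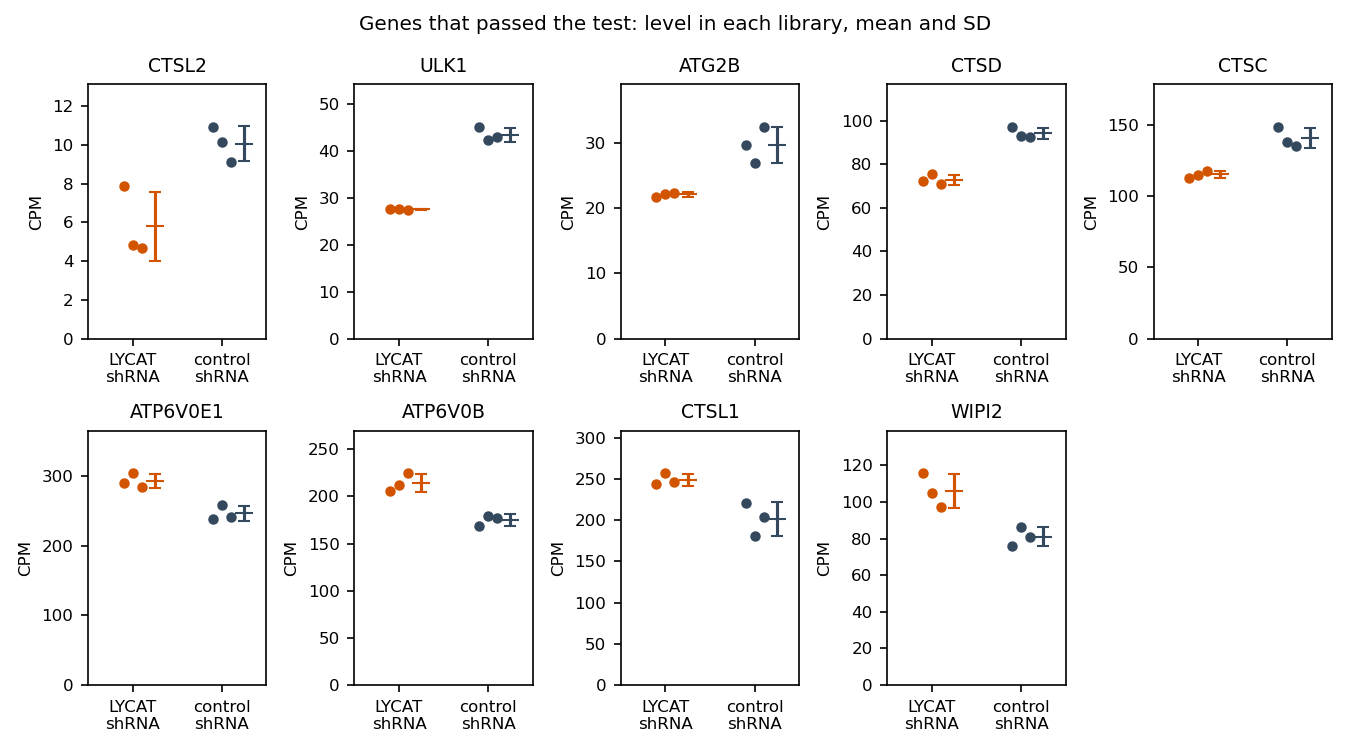
Level in CPM of the 9 genes that passed, in each of 3 LYCAT shRNA libraries (left) and 3 control shRNA libraries (right), with the mean and SD beside the points; each vertical axis starts at 0. In all 9 panels the points of the 2 groups do not overlap, and CTSL2 is the lowest in level and the most scattered with LYCAT shRNA.

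Of the proton pump genes, 2 of the V0 sector rose and those of the V1 sector did not pass. In the V0 sector 28.6% of 7 tested genes rose and over both sectors 12.5% of 16, against 9.81% of all tested genes. ATP6V0B, which encodes a subunit of the proton-carrying ring, stood at 206, 212 and 224 CPM with LYCAT shRNA, against 168, 179 and 177 CPM with control shRNA. The groups did not overlap. The mean was 214 ± 9.44 CPM with LYCAT shRNA and 175 ± 5.91 CPM with control shRNA (SD, n = 3 each), a rise of 1.22-fold (log2 0.29, SE 0.0599, edgeR adjusted p = 0.000141).

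ATP6V0E1, which encodes the small e subunit of the sector, stood at 290, 303 and 283 CPM with LYCAT shRNA, against 238, 259 and 241 CPM with control shRNA. All LYCAT shRNA libraries were above all control libraries. The mean was 292 ± 10.3 CPM with LYCAT shRNA and 246 ± 11.2 CPM with control shRNA (SD, n = 3 each), a rise of 1.19-fold (log2 0.25, SE 0.0550, edgeR adjusted p = 0.000490). ATP6V0C, which encodes the main subunit of the ring and is the most abundant V0 gene, was at 488, 526 and 518 CPM with LYCAT shRNA and 478, 492 and 478 CPM with control shRNA. It did not pass (log2 0.08, edgeR adjusted p = 0.266), with an interval from 1.10% lower to 12.9% higher (95%).

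The remaining V0 genes of the 75 that were tested, ATP6V0A1, ATP6V0A2, ATP6V0D1 and ATP6V0E2, had log2 fold changes from -0.08 to 0.15 and did not pass. ATP6V0D1, which joins the ring to the V1 stalk, was at 65.4 ± 0.618 CPM with LYCAT shRNA and 65.2 ± 4.23 CPM with control shRNA (SD, n = 3 each). Of the 9 tested V1 genes 0 passed with edgeR, against 19.1% of all tested genes, and 0 with DESeq2 or limma-voom. ATP6V1E1, a stalk subunit, had an unadjusted edgeR p under 0.05. ATP6V1E1 was at 150, 151 and 164 CPM with LYCAT shRNA and 148, 130 and 144 CPM with control shRNA, without overlap (log2 0.14, edgeR adjusted p = 0.120). ATP6V1G1, also of the stalk, was at 474 ± 5.25 CPM with LYCAT shRNA and 449 ± 23.2 CPM with control shRNA, and ATP6V1A, the catalytic subunit, at 154 ± 4.63 CPM with LYCAT shRNA and 147 ± 6.06 CPM with control shRNA (SD, n = 3 each). Both had a log2 fold change of 0.08. ATP6V1C1, a subunit that links the sectors, had log2 0.20 and passed as higher without LYCAT shRNA replicate 3 (edgeR adjusted p = 0.0457). The V1 genes ran from -0.10 to 0.20 and the V0 genes from -0.08 to 0.29 on the log2 scale, with medians of 0.08 in both sectors. TCIRG1, a V0 subunit gene that the symbol rule missed, is not in these ranges or in the sums below. It was at 39.2 ± 1.93 CPM with LYCAT shRNA and 45.8 ± 8.65 CPM with control shRNA (SD, n = 3 each). The groups overlapped, and TCIRG1 did not pass (log2 -0.24, edgeR adjusted p = 0.120). The 7 V0 genes summed to 1150 ± 27.4 CPM with LYCAT shRNA and 1035 ± 30.0 CPM with control shRNA, and the 9 V1 genes to 1147 ± 5.56 CPM with LYCAT shRNA and 1096 ± 38.3 CPM with control shRNA (SD, n = 3 each). These sums were not tested, and ATP6V0C and ATP6V1G1 hold the largest shares of them.

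The tissue-restricted pump subunits were at or near 0. ATP6V1B1, ATP6V1C2, ATP6V1G3 and ATP6V0D2, known from kidney and other specialised acid-secreting cells, had 0 counts in every library, as did the readthrough transcript ATP6V1G2-DDX39B. ATP6V0A4, of the same kind, had counts of 1, 0 and 2 with LYCAT shRNA and 2, 1 and 0 with control shRNA, and ATP6V1G2, the neuronal G subunit, had 1 count in all. Of the 16 genes that were not tested, 10 had 0 counts in every library.

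For many of the genes that did not pass, the size of change that the data still allow was small. The unadjusted 95% interval stayed within 1.2-fold in either direction for 13 of 50 genes, which were SQSTM1, LAMP1, BECN1, ATG3, GABARAPL2, CTSA, ATP6V0C, ATP6V0D1, ATP6V1A, ATP6V1B2, ATP6V1F, ATP6V1G1 and ATP6V1H. For 10 of the 50 it reached beyond 1.5-fold, including TFEB, ULK2, LAMP3, WIPI1 and ATG16L2. For 7 it did not include 0, and these were ATG12, GABARAPL1, ATP6V1E1, SQSTM1, CTSB, CTSO and ATG9A.

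Other lysosome and autophagy genes were taken in 7 lists outside the 75 genes, also chosen with earlier results of these data known. They gave a like share of calls: of 162 tested, 11 rose and 14 fell. That was 15.4% in all, against 19.1% of all tested genes, and the 162 had a median log2 fold change of 0.002. Lysosomal hydrolases and their activators fell in 3 of 41 tested genes, or 7.32% against 9.26% of all tested genes. They rose in 0, against 9.81% of all tested genes. GGH, which trims folate polyglutamates, was at 204 ± 3.01 CPM with LYCAT shRNA and 239 ± 22.2 CPM with control shRNA (SD, n = 3 each), and the call was lost without control replicate 1 (edgeR adjusted p = 0.0533). DNASE2, the acid nuclease, had log2 -0.41 and did not pass without LYCAT shRNA replicate 2 (0.0841) or control replicate 3 (0.0775). MANBA, a mannosidase, had log2 -0.48 and did not pass without LYCAT shRNA replicate 1 or 3 (0.151 and 0.103) or control replicate 1 (0.317). With DESeq2 GGH kept its call, and DNASE2 (adjusted p = 0.0702) and MANBA (0.166) did not. Without control libraries 1 and 2 together MANBA did not pass (edgeR adjusted p = 0.550).

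Among lysosomal membrane proteins and transporters 1 rose, 4 fell and 26 did not pass. The shares were 3.23% higher and 12.9% lower, against 9.81% and 9.26% of all tested genes. SCARB2, also known as LIMP-2, the receptor that carries glucocerebrosidase to lysosomes, was at 85.3, 99.7 and 96.9 CPM with LYCAT shRNA and 128, 123 and 116 CPM with control shRNA. The groups did not overlap, and SCARB2 fell by 0.39 on the log2 scale (SE 0.0738, edgeR adjusted p = 3.47e-05), also when any one library was left out. CLN3, a membrane protein mutated in juvenile Batten disease, had log2 0.44 and did not pass without LYCAT shRNA replicate 3 (0.159) or control replicate 1 (0.0906). MFSD8, a transporter-like protein, had log2 -0.58 and did not pass without LYCAT shRNA replicate 2 (0.0716), LYCAT shRNA replicate 3 (0.102) or control replicate 1 (0.138). GNPTG, a subunit of the enzyme that starts the mannose 6-phosphate tag, had log2 -0.51 and did not pass without LYCAT shRNA replicate 1 (0.157), LYCAT shRNA replicate 2 (0.124), control replicate 1 (0.110) or control replicate 3 (0.0559). With DESeq2 SCARB2 alone of the 5 kept its call, with adjusted p of 0.113 for CLN3, 0.136 for MFSD8, 0.149 for GNPTG and 0.196 for GNPTAB, the remaining gene that fell. These 4 also did not pass without control libraries 1 and 2 together (edgeR adjusted p = 0.180 for CLN3, 0.317 for MFSD8, 0.266 for GNPTG and 0.206 for GNPTAB).

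Genes that assemble or bind the V-ATPase, with TCIRG1 counted among them, fell in 3 of 12 and rose in 1. That is 25% and 8.33%, against 9.26% and 9.81% of all tested genes. NCOA7, a pump-binding protein of the TLDc family, was at 40.8, 47.1 and 39.7 CPM with LYCAT shRNA and 60.0, 67.9 and 66.7 CPM with control shRNA. NCOA7 showed a fall of 1.54-fold (log2 -0.62, SE 0.0979, edgeR adjusted p = 7.11e-07). Its relative OXR1 had log2 -0.32, and the call was lost without LYCAT shRNA replicate 1 (0.126), LYCAT shRNA replicate 2 (0.162) or control replicate 3 (0.213) and with DESeq2 (0.120). Whether these 2 genes differ was not tested. DMXL2, which helps the sectors assemble, was at 59.4 ± 5.64 CPM with LYCAT shRNA and 82.9 ± 1.60 CPM with control shRNA (SD, n = 3 each; log2 -0.48, edgeR adjusted p = 1.10e-05). VMA21, an assembly chaperone of the V0 sector, was at 242 ± 9.10 CPM with LYCAT shRNA and 206 ± 4.92 CPM with control shRNA (SD, n = 3 each; log2 0.23, edgeR adjusted p = 0.00179), and did not pass without control libraries 1 and 2 together (0.0804).

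In the list of mTORC1 and lysosomal nutrient sensing 5 of 27 genes rose and 1 fell. That is 18.5% and 3.7%, against 9.81% and 9.26% of all tested genes. DESeq2 called 3 of the 27 in all, and 635 higher and 558 lower of 11097 tested genes. NPRL2 and HBXIP, which were among those that rose, lost their calls in 4 and 5 of the 6 fits that left out 1 library. SESN1, a stress-induced inhibitor of mTORC1, was at 13.2, 11.6 and 13.8 CPM with LYCAT shRNA and 6.86, 4.66 and 7.63 CPM with control shRNA, a rise of 2.05-fold (log2 1.03, SE 0.217, edgeR adjusted p = 0.000202). SESN2, its paralog, was at 30.4, 34.8 and 28.5 CPM with LYCAT shRNA and 46.5, 43.8 and 44.6 CPM with control shRNA, a fall of 1.45-fold (log2 -0.54, SE 0.111, edgeR adjusted p = 0.000147). Neither pair of groups overlapped, and both calls held when any one library was left out, but SESN1 did not pass without control libraries 1 and 2 together (edgeR adjusted p = 0.0897). RHEB, the GTPase that activates mTORC1, had log2 0.24 and did not pass without LYCAT shRNA replicate 3 (0.0708). RRAGC, a Rag GTPase that brings mTORC1 to the lysosome, had log2 0.42 and did not pass without LYCAT shRNA replicate 3 (0.0588) or control replicate 1 (0.0793) and with DESeq2 (0.0709). Without control libraries 1 and 2 together RHEB (edgeR adjusted p = 0.113) and RRAGC (0.611) did not pass.

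Of 14 other autophagy receptors 3 rose and 1 fell, which is 21.4% and 7.14%, against 9.81% and 9.26% of all tested genes. CCPG1, a receptor for autophagy of the endoplasmic reticulum, was at 19.4, 27.4 and 24.5 CPM with LYCAT shRNA and 42.9, 36.3 and 39.2 CPM with control shRNA, a fall of 1.69-fold (log2 -0.75, SE 0.124, edgeR adjusted p = 2.07e-06). OPTN, a receptor for mitochondria and bacteria, was at 44.7, 48.7 and 46.2 CPM with LYCAT shRNA and 28.7, 32.4 and 34.7 CPM with control shRNA, a rise of 1.45-fold (log2 0.54, SE 0.109, edgeR adjusted p = 0.000114). Neither gene had overlapping groups, and both calls held when any one library was left out, but OPTN did not pass without control libraries 1 and 2 together (edgeR adjusted p = 0.0653). BNIP3, a mitophagy receptor, had log2 0.27 with overlapping groups and did not pass without LYCAT shRNA replicate 2 (0.0990), LYCAT shRNA replicate 3 (0.154), control replicate 2 (0.104) or control replicate 3 (0.0532). NCOA4, which delivers ferritin, had log2 0.21 with overlapping groups and did not pass without LYCAT shRNA replicate 1 (0.126), LYCAT shRNA replicate 3 (0.160), control replicate 2 (0.221) or control replicate 3 (0.0629). BNIP3 and NCOA4 also did not pass with DESeq2 (adjusted p = 0.0548 for BNIP3 and 0.140 for NCOA4) or without control libraries 1 and 2 together (edgeR adjusted p = 0.0613 for BNIP3 and 0.151 for NCOA4).

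Among other genes of autophagosome formation 1 of 17 rose and 2 fell, which is 5.88% and 11.8%, against 9.81% and 9.26% of all tested genes. RB1CC1, which encodes FIP200, a partner of ULK1, was at 48.5, 48.4 and 46.7 CPM with LYCAT shRNA and 66.2, 62.8 and 52.9 CPM with control shRNA, without overlap (log2 -0.35, SE 0.0971, edgeR adjusted p = 0.00589). It did not pass without control replicate 1 (0.0689). VPS13A, a lipid transfer protein, had log2 -0.41 and did not pass without LYCAT shRNA replicate 3 (0.174). TMEM41B, a scramblase of the endoplasmic reticulum, had log2 0.32 and did not pass without LYCAT shRNA replicate 1 (0.104) or control replicate 2 (0.0610). With DESeq2 0 of the 17 passed, with adjusted p of 0.0508 for RB1CC1, 0.0515 for VPS13A and 0.103 for TMEM41B. Without control libraries 1 and 2 together these 3 did not pass either (edgeR adjusted p = 0.556 for RB1CC1, 0.0509 for VPS13A and 0.141 for TMEM41B). Of 20 genes of autophagosome and lysosome fusion 0 passed with edgeR, against 19.1% of all tested genes, and 0 with DESeq2 or limma-voom. VPS41, a subunit of the tethering complex, had an unadjusted edgeR p under 0.05. The counts of all 162 genes depended on the test and the libraries, as did those of all tested genes. DESeq2 called 4 higher and 6 lower of the 162. Of all tested genes it called 635 higher and 558 lower, against 1089 and 1028 with edgeR. Leaving out 1 library gave 742 to 1128 higher and 700 to 1100 lower of all tested genes. Of the 162, those called higher were 7 without LYCAT shRNA replicate 1, 4 without LYCAT shRNA replicate 3 and 7 without control replicate 2. Those called lower were 8 without control replicate 1. Without control libraries 1 and 2 together 1 was higher and 9 lower.

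**Figure D4:**
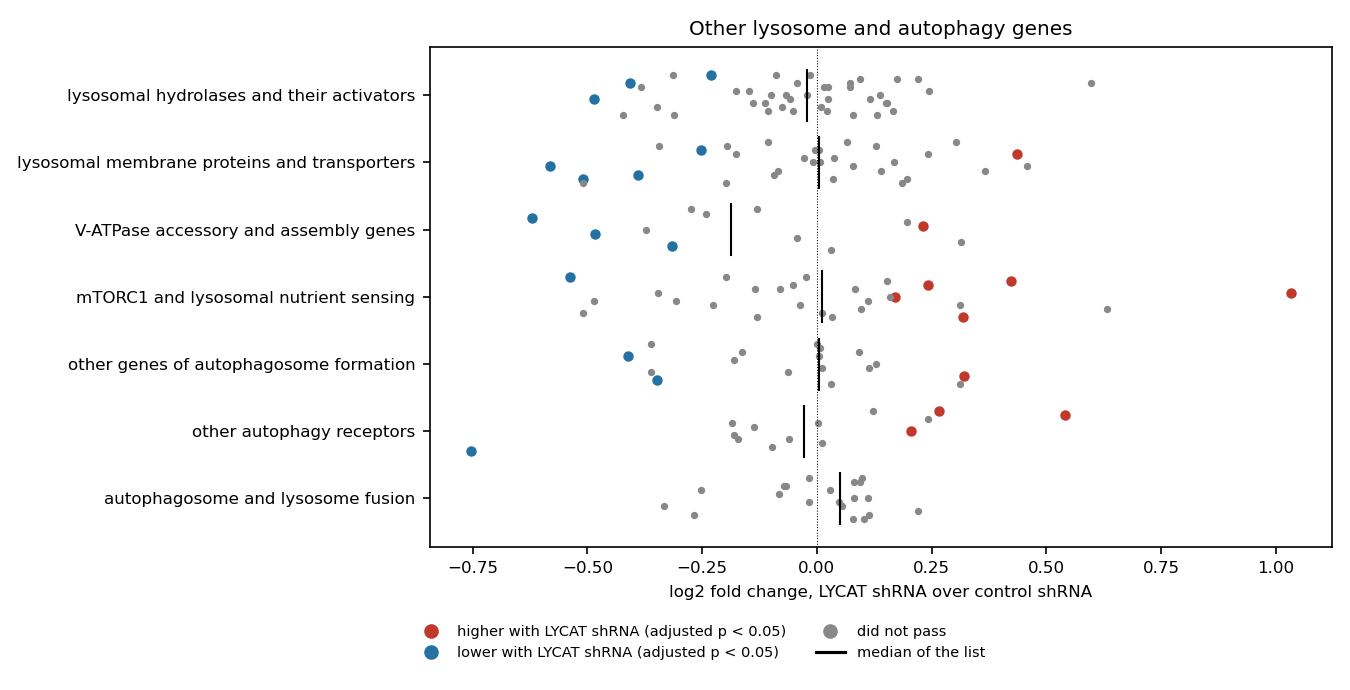
Log2 fold change of LYCAT shRNA over control shRNA for 162 tested lysosome and autophagy genes outside the 75, in 7 lists, 1 point per gene, with the median of each list as a black bar; points are offset vertically for legibility. Red and blue points passed as higher and lower, and SESN1 at 1.03 and CCPG1 at -0.75 are the extremes.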

How the data were processed

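The authors deposited raw counts per gene for 6 libraries. The submitters' processing notes list featureCounts 1.5.1, Bowtie2, BWA 0.7.15, bcl2fastq 2.17 and the builds hg19 and mm10, without roles; no source used here gives the strand setting. Reads of overlapping antisense genes therefore cannot be told apart. Only the 9 genes that passed were searched for overlaps, in GENCODE v29. Of these, ATP6V0B, ATG2B and CTSD have exons that overlap those of a gene on the opposite strand. Exons of CTSD also overlap a protein-coding gene on the same strand, which no strand setting separates. The LYCAT shRNA columns carry a misspelled name and were assigned by it.

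Genes were filtered by filterByExpr in edgeR 4.0.16 (R 4.3.3), which left 11097 holding 99.77% of counts, scaled with TMM and tested with the quasi-likelihood F test (robust=TRUE), group as the only term. An adjusted p under 0.05 was called. SE is the log2 fold change over the square root of F. Exon lengths came from GENCODE v29 and served levels only.

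Genes and lists were chosen with earlier results of these data known. Genes named are those that passed, SQSTM1, TFEB, TFE3, BECN1, the 2 most abundant of each role without calls, the 2 nearest the threshold on each side, untested genes, and up to 3 calls per direction in each further list; others named serve the ranges or were chosen after their values were seen. The fit, DESeq2 1.42.0 and limma-voom (limma 3.58.1) were tested on simulated data.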

Additional observations from a re-analysis of the deposited data

How the results depend on the processing

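Alternatives were DESeq2's size factors, library totals, no filter, a mean of at least 5 CPM, DESeq2, limma-voom, a replicate block, robust=FALSE, leaving out each library and, added after seeing the data, leaving out control libraries 1 and 2. ULK1, CTSD, CTSL1, WIPI2, ATP6V0B and ATP6V0E1 kept their calls under all 15, and no call reversed. With DESeq2 3 of the 75 genes fell, without ATG2B and CTSL2, and 635 of all tested genes rose and 558 fell; of the 162 related genes 4 rose and 6 fell. Without control libraries 1 and 2, which assumes that the 1 control library left has the spread of the LYCAT shRNA group, 573 rose and 556 fell, and 1 and 9 of the related genes. Leaving out 1 library gave 4 to 6 of the 75 genes higher and 4 to 5 lower, 742 to 1128 of all genes higher and 700 to 1100 lower, and 4 to 10 and 8 to 18 of the related genes. Replicate numbers did not pair the libraries (correlations of same-numbered deviations 0.00509, -0.0645 and -0.0477), and the replicate block gave the same 9 calls, with 1044 higher and 1002 lower over all genes and 9 and 13 of the related genes. Depth limits TFEB, ULK2, LAMP3 and other genes under 5 CPM.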
